A study of Mus musculus with 4 samples.

Results

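The genes described here encode the proteins of the cytosolic ribosome. They were taken by symbol from the deposited gene list: symbols beginning with Rpl or Rps and a number, together with Rpsa and Rplp0 to Rplp2, without pseudogene symbols and without the S6 kinases. The rule took 94 of 55357 listed genes. It reads symbols and not measured values. Rps19bp1 (a binding partner of Rps19), Rpl7l1 and Rps23rg1 fit it by symbol although they are not counted among the standard ribosomal proteins.

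Single cells were profiled with the 10x Genomics 3′ version 3 chemistry. They came from the hemisphere on the injured side in wild-type mice that had an ischemic stroke. Hydrogel microspheres were placed in the infarct cavity on day 5, and tissue was taken on day 14. The labels name 4 groups with 1 library each: MAPS, UT EV+MAPS, IL-4 C1q EV+MAPS and IL-1a TNFa C1q EV+MAPS. In MAPS the implant is listed with no vesicles. In the other groups extracellular vesicles (EV) from astrocytes were given with it. The groups are called the MAPS, UT, IL-4 and IL-1a libraries here, and all but the first are the EV libraries. All 4 groups share the stroke, the implant, the days and the cell preparation, which removed dead cells and lysed red blood cells. The labels expand neither MAPS nor UT and do not give the number of animals per library. With 1 library per group, a group cannot be told apart from its library, no difference between groups has a replicate check, and every interval below is a 95% interval that covers counting error only.

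A ribosome joins a small subunit, built on 18S rRNA with the Rps proteins, and a large subunit, built on the 5S, 5.8S and 28S rRNAs with the Rpl proteins. The small subunit reads the messenger RNA, the large subunit joins the amino acids, and the acidic proteins Rplp0, Rplp1 and Rplp2 form a stalk that recruits elongation factors. Messenger RNAs of ribosomal proteins are among the most abundant in dividing and activated cells. Most begin with a C at the cap followed by an unbroken run of pyrimidines, the 5′ terminal oligopyrimidine (5′ TOP) motif. Through it, the kinase complex mTORC1 and the protein Larp1 control translation and stability of these messages together.

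The start sites below show this shared element, and show genes in which it was not found within a few bases of the annotated start. Each line gives 30 bases of the transcribed strand, from 10 bases before the annotated transcript start to 19 after it, from the RefSeq promoter table (GRCm38.p6). Capitals mark a run of C and T that begins with a C within 5 bases of the annotated start and spans at least 5 bases. The first 6 have such a run and the last 4 do not, although Rps12 has a run of pyrimidines further downstream in the bases shown. Those 4, and Rps2, Rps6, Rps24 and Rps27, were chosen because results below turn on them, and Rplp2 and Rpl38 as a stalk gene and a gene that differs between cell classes.
Rps24 (chr14:24490668-24490697, plus strand): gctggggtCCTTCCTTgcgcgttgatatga
Rps27 (chr3:90213629-90213658, minus strand): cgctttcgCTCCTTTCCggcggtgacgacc
Rps6 (chr4:86857348-86857377, minus strand): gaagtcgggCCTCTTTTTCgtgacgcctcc
Rplp2 (chr7:141447641-141447670, plus strand): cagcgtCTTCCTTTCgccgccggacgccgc
Rpl38 (chr11:114668570-114668599, plus strand): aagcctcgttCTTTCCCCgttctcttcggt
Rps2 (chr17:24720053-24720082, plus strand): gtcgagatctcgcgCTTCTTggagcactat
Rpl24 (chr16:55966265-55966294, plus strand): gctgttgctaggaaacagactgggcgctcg
Rps25 (chr9:44407704-44407733, plus strand): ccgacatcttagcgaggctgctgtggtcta
Rps15 (chr10:80292421-80292450, plus strand): cagagctcgcgataactgcgcaagcgcagc
Rps12 (chr10:23787190-23787219, minus strand): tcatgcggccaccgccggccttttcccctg

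Of the 94 genes, 69 had an entry in that table, and 32 of the 69 (46.4%) held such a run, against 21.2% of 27025 genes searched in the same way on the transcribed strand. The runs were 5 to 20 bases long, with a median of 8.5. When the run could lie anywhere within 30 bases of the annotated start, with a C and at least 6 further pyrimidines, the shares were 68.1% and 31.9%, a search added after the first was seen. A match is a description of these letters only, and the annotated start can lie some bases from the base used in these cells.

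The MAPS library stood apart from the EV libraries. It held 81.2 M UMIs (M, 1000000; unique molecular identifiers, each marking 1 captured RNA molecule), against 45.7 to 52.6 M in the EV libraries. Its kept cells had a median of 4468 UMIs, against 2421 to 2633. After filters on depth, mitochondrial share and called doublets, 12302 to 14221 cells per library were kept, and 43 to 64 cell barcodes occurred in both libraries of a pair. Cells were placed in 18 classes by marker genes, and the 8 classes with at least 50 cells in every library are described. Cells that fit no class were 7.31% of kept cells in the MAPS library and 19.6% to 22.3% in the EV libraries. Values within classes leave these cells out. Genes kept out of the gate marked each class: Siglech in microglia was 49.7 times its level in the other gated cells, Mobp in oligodendrocytes 171 times and Agt in astrocytes 220 times. The class mix also differed, with 133 endothelial cells in the MAPS library and 1024 to 1543 in the EV libraries, and with 1703 and 430 to 638 astrocytes. Comparisons are therefore given mainly within classes. Values over all kept cells also carry the difference in class mix. Comparisons among the EV libraries, which do not use the MAPS library, are given separately.

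Ribosomal protein genes gave 8.98% of all UMIs in the kept cells of the MAPS library, 13.6% in the UT library, 13.8% in the IL-4 library and 15.02% in the IL-1a library. T cells had the highest share of the 8 classes and astrocytes the lowest, in 4 of 4 libraries. In T cells the shares were 21.7% in the MAPS library, 27.7% in the UT library, 27.4% in the IL-4 library and 28.1% in the IL-1a library. In astrocytes they were 1.83%, 4.75%, 4.92% and 5.53% in the same order. The highest class was 11.8 times the lowest in the MAPS library and 5.08 to 5.84 times in the EV libraries.

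Microglia, the brain's resident macrophages and the most numerous class, had 9.14% in the MAPS library, 15.5% in the UT library, 16.1% in the IL-4 library and 16.0% in the IL-1a library. The EV libraries thus lay within 1 percentage point of each other and well above the MAPS library. Neuroblasts, the migrating precursors of neurons, followed with 7.90%, 13.3%, 13.5% and 14.4%, and endothelial cells with 7.21%, 11.7%, 11.5% and 12.6%. In the MAPS library the median neuroblast had 4.69% (quartiles 1.36% and 8.97%), below the median endothelial cell at 6.19%. In the EV libraries the median neuroblast lay above the median endothelial cell. Ependymal cells and choroid plexus cells, both ciliated or secretory epithelia of the ventricles, were close to each other. In the UT library their intervals overlapped, at 7.62% (7.55 to 7.70) and 7.51% (7.44 to 7.58), while in the MAPS library choroid plexus cells were higher, at 5.64% against 5.09%. In the other libraries ependymal cells were higher with intervals apart, at 7.65% against 7.34% in IL-1a and 7.58% against 7.05% in IL-4. Median ependymal and choroid plexus cells had 7.48% and 7.18% in IL-1a, but were nearly level in IL-4, at 7.43% and 7.48%. Oligodendrocytes, which make myelin, had 3.35% in the MAPS library, 5.997% in the UT library, 6.28% in the IL-4 library and 6.25% in the IL-1a library. Among classes with fewer cells, B cells had 18.8% to 28.0% over the 4 libraries, near T cells, NK cells 18.6% to 26.2% and neutrophils 3.29% to 7.93%. The median B cell lay above the median T cell in the EV libraries, at 28.1% against 26.6% in UT, 29.9% against 25.9% in IL-4 and 31.6% against 27.1% in IL-1a. In MAPS it lay below, at 19.5% against 21.3%.

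**Figure D1:**
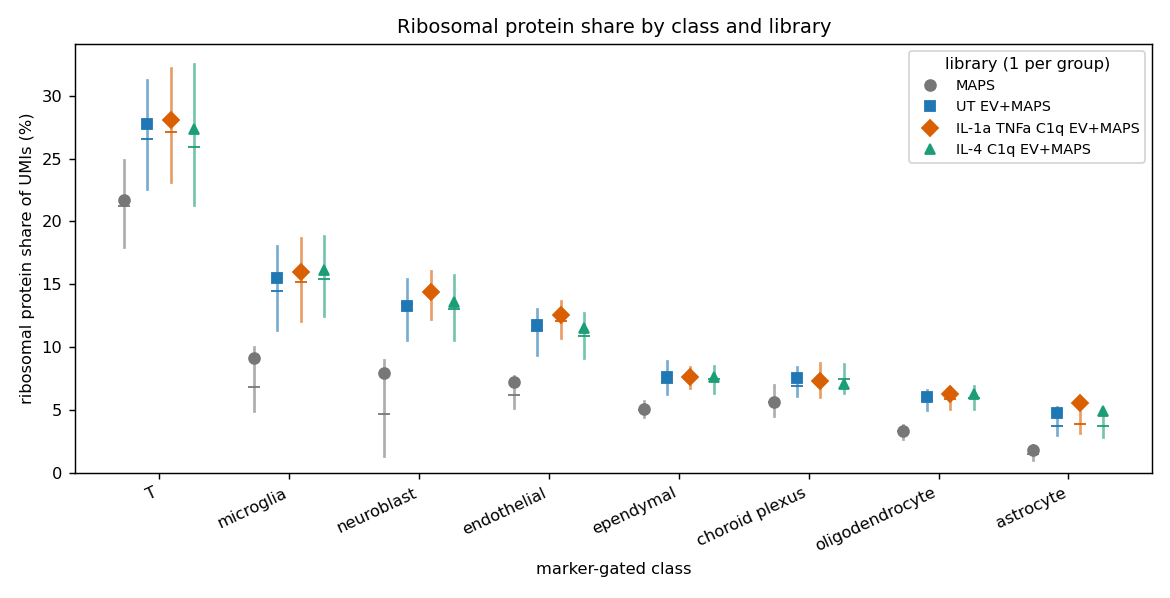
Share of all UMIs that fell on the 94 ribosomal protein genes (vertical axis, percent) in each of 8 cell classes (horizontal axis). Each point is the summed share of 1 library, vertical lines span the middle quartiles of its single cells, and the tick is its median cell. T cells lie between 21.7% and 28.1% and astrocytes between 1.83% and 5.53%, and the MAPS library has the lowest point in every class.

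The MAPS library had the lowest share in 8 of 8 classes. The ratio of the UT share to the MAPS share ran from 1.28 to 2.59, with a median of 1.65, and the corresponding medians were 1.74 for the IL-1a library and 1.66 for the IL-4 library. All of these comparisons share the MAPS library. With each library's classes weighted as in the UT library, the totals were 8.07% for MAPS, 13.2% for UT, 13.5% for IL-4 and 13.7% for IL-1a, so that the gap remained at equal class mix. The median microglial cell had 6.81% in the MAPS library and 14.5% to 15.4% in the EV libraries. Among the EV libraries the class shares were near each other. The ratio of IL-1a to UT had a median of 1.04 over the 8 classes and was above 1 in 7 of them, from 0.976 to 1.16. The largest was in astrocytes, at 1.16 (1.15 to 1.18) for the summed share. The median astrocyte differed less, at 3.72% in UT and 3.89% in IL-1a, and the upper quartile was lower in IL-1a (4.82% against 5.21%). The ratio of IL-4 to UT had a median of 1.01 and was above 1 in 4 of 8 classes, and that of IL-4 to IL-1a had a median of 0.968 and was above 1 in 2 of 8.

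A share can differ through the genes counted or through all other genes, so the UMIs per cell were set side by side. Microglia had 537 ribosomal protein UMIs per cell in the MAPS library, 524 in the UT library, 473 in the IL-4 library and 485 in the IL-1a library. Their UMIs of all other genes were 5336, 2861, 2462 and 2551 in the same order. In microglia the libraries were thus close in ribosomal protein UMIs per cell and far apart in the rest. Oligodendrocytes had 251, 270, 272 and 263 ribosomal protein UMIs per cell, beside 7238, 4229, 4067 and 3942 others. T cells differed on both counts, with 1098 ribosomal protein UMIs per cell in the MAPS library and 591 to 619 in the EV libraries, beside 3967 and 1564 to 1613 others. Astrocytes had fewer ribosomal protein UMIs in the MAPS library, 72.7 per cell against 93.3 to 127, beside 3892 and 1859 to 2178 others. UMIs per cell depend on sequencing and capture as well as on the cells, and less RNA per cell cannot be told apart from less of it captured.

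**Figure D2:**
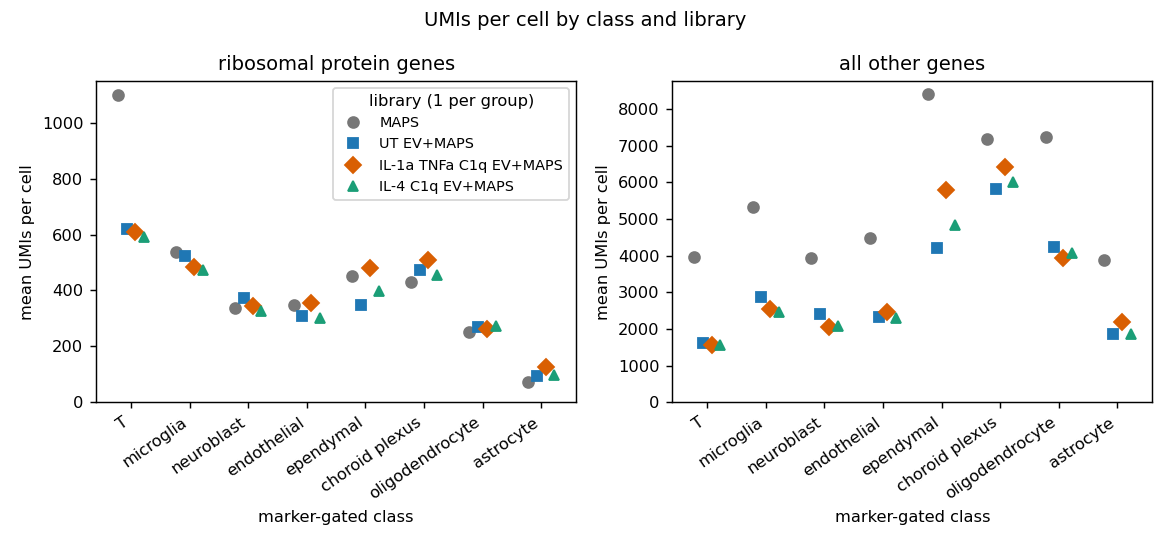
Mean UMIs per cell (vertical axes) on ribosomal protein genes and, in the other panel, on all other genes, by class, with 1 point per library. In microglia the first quantity lies between 473 and 537 and the second between 2462 and 5336, with the MAPS library highest in both.

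Other measures moved with the same split. The mitochondrial share of UMIs in microglia was 1.23% in the MAPS library and 0.474% to 0.561% in the EV libraries, and in astrocytes 3.40% against 1.15% to 1.73%. Malat1, a nuclear RNA, was 1.99% of microglial UMIs in the MAPS library and 1.29% to 1.59% in the EV libraries. The 12 microglial markers summed to 1150 CPM (UMIs per 1000000 UMIs) in MAPS T cells and to 346 to 534 in EV T cells, and to 608 and 416 to 484 in oligodendrocytes. In microglia themselves they summed to 21960 CPM in MAPS and to 9104 to 10214 in the EV libraries. Other lists went the opposite way. The 11 endothelial markers summed to 36.3 CPM in MAPS microglia and to 62.9 to 93.0 in EV microglia, and to 10.4 and 63.5 to 76.7 in oligodendrocytes. The 11 oligodendrocyte markers summed to 443 CPM in MAPS endothelial cells and to 876 to 1070 in EV endothelial cells. The direction thus differed between lists. The part of these measures in the lower ribosomal protein share of the MAPS library was not tested.

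Gene by gene, levels are given in CPM, over the UMIs of the cells named. A 3′ count takes 1 UMI per molecule and is not divided by transcript length, though ratios between libraries varied with length, as given further on. Of the 94 genes, 86 had at least 500 UMIs. Among those with the most were Rps24 and Rps20 (small subunit), Rpl23 (large subunit, a binder of Mdm2) and Rpl41 (the smallest ribosomal protein). Rps24, mutated in some patients with Diamond-Blackfan anaemia, had 791886 UMIs in all. Over all kept cells it was at 2154 CPM in the MAPS library, 4617 in UT, 4533 in IL-4 and 4944 in IL-1a. Rps20 had 1520, 4226, 4226 and 5264 CPM in the same order, Rpl23 had 2071, 3447, 3690 and 3807, and Rpl41 had 1842, 3636, 3693 and 3984. These 4 were lowest in the MAPS library and highest in the IL-1a library. Of the genes with at least 500 UMIs, the 5 with the fewest were Rpl6l with 1827, Rps27rt with 4668, Rpl37rt with 5990, Rps19bp1 with 10558 and Rpl7l1 with 12115, all copies or relatives outside the core ribosome. The other 8 were Rpl39l with 438 UMIs, Rpl32l with 313, Rps3a3 with 180, Rps3a2 with 124, Rpl3l (the striated-muscle form of Rpl3) with 54, Rps23rg1 with 20, Rps12l1 with 6 and Rpl10l (the testis form of Rpl10) with 1.

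The stalk proteins did not share one order of libraries. Rplp0 was at 1114 CPM over all kept cells in the MAPS library, 1923 in UT, 1879 in IL-4 and 2282 in IL-1a. Rplp1 was at 2931, 2428, 2642 and 2282 CPM in the same order, highest in MAPS and lowest in IL-1a. Rplp2 was at 1346, 1608, 1766 and 1765 CPM. The ratio of Rplp1 to Rplp0 levels therefore differed between libraries, although the proteins sit together on the large subunit. Rpsa, a small-subunit protein known also as a laminin receptor, was at 1011, 2062, 1888 and 2553 CPM.

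To compare the make-up of the set apart from its total, each gene was taken as a share of ribosomal protein UMIs over all kept cells. Over the 86 genes, the EV libraries had nearly the same make-up: the log2 shares correlated between EV libraries with Pearson r of 0.996 to 0.999, and their log2 ratios had SDs of 0.09 to 0.17. Between an EV library and the MAPS library r was 0.878 to 0.906 and the SD 0.77 to 0.89. In microglia alone r was 0.996 to 0.999 between EV libraries and 0.874 to 0.902 between an EV library and MAPS. These are correlations across genes of single libraries, given as a description. Over all kept cells, the mean EV share over the MAPS share was lowest for Rps12 at 0.202, Rps25 at 0.206, Rpl23a at 0.206, Rps15 at 0.209 and Rpl4 at 0.260. It was highest for Rpl24 at 2.99, Rps2 at 2.11 and Rps20 at 1.90. Rpl23a and Rpl4 lie at the tunnel through which the new protein leaves, Rps15 near the decoding centre, and Rpl24 at a bridge between the subunits. The highest EV library over the lowest had a median of 1.11 over the 86 genes and a maximum of 1.38, for Rps12.

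**Figure D3:**
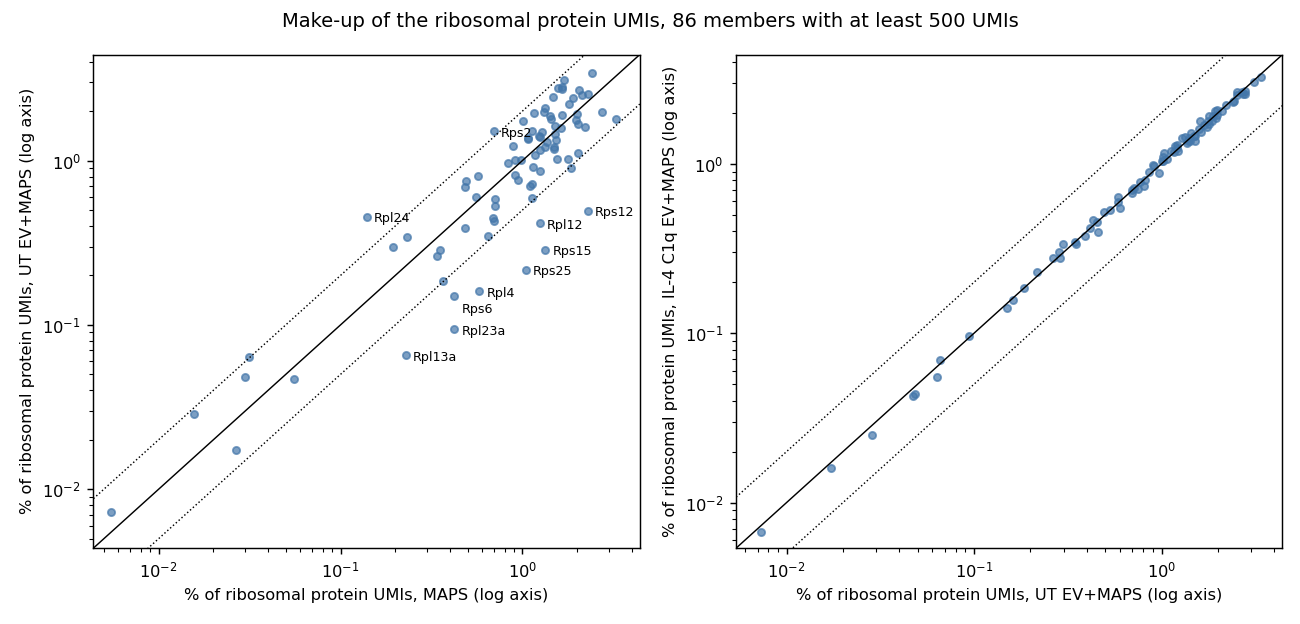
Each of 86 genes as a share of ribosomal protein UMIs over all kept cells (log axes, percent), with the UT library against MAPS in the left panel and IL-4 against UT in the right; the solid line marks equal shares and dotted lines 2-fold differences. The points lie along the line for IL-4 against UT (r of 0.999) and spread around it for UT against MAPS (r of 0.894), with Rps12, Rps15, Rps25 and Rpl23a below and Rpl24 above.

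The copies of ribosomal protein genes scattered through the genome can take or block reads of their parents. Of the 86 genes, 67 shared at least one 50-base stretch of the last 400 bases of the transcript with another annotated gene. This used 1 annotated transcript per gene, the longest where annotation ranks tied, up to 5179 bases for Rps15a. Its end need not be the end counted in these cells. The extent of sharing and the EV over MAPS ratio had a Pearson r of -0.04 and a Spearman rho of -0.08 across genes. Symbols marked as pseudogenes held 0.316 UMIs per 100 ribosomal protein UMIs over all kept cells of the MAPS library, 0.339 in UT and IL-4 and 0.326 in IL-1a. The counts per gene do not show how the authors' counting split such reads, and genes with a near-identical copy are uncertain by that amount.

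Within single classes, the UT library against the MAPS library showed more ribosomal protein genes higher than lower, with the opposite split over all genes. A gene with at least 50 UMIs over both libraries was called higher or lower where its log2 ratio of CPM lay at or beyond 0.32 in that direction. In microglia 59 of 87 tested members were higher and 10 lower, against 15.8% of all genes higher and 71.4% lower. In oligodendrocytes 67 of 87 were higher and 9 lower (22% and 61.9% of all genes), in endothelial cells 60 of 85 and 9 (23.9% and 59.4%), and in T cells 42 of 86 and 19 (18.8% and 65.4%). The median log2 ratio of the members was 0.72 in microglia, 0.81 in oligodendrocytes, 0.69 in endothelial cells and 0.31 in T cells, beside -1.05, -0.71, -0.60 and -0.85 over all genes. TMM scaling, which centres a trimmed mean of the log2 ratios, moved them up by 0.82, 0.70, 0.89 and 0.49 in that order. The medians over all genes were then -0.23, -0.007, 0.29 and -0.36, so all genes were not centred in each class. With TMM scaling the split of higher to lower members was 77 to 5 in microglia, 79 to 1 in oligodendrocytes, 77 to 4 in endothelial cells and 61 to 8 in T cells. The shares of all genes called higher and lower were then 32.7% and 46.7% in microglia, 39.7% and 37.7% in oligodendrocytes, 49.1% and 26.1% in endothelial cells and 30.3% and 51.3% in T cells.

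Among members with at least 200 UMIs over both libraries, Rpl24 had the largest ratio in all 4 classes. In microglia it was at 111 CPM in the MAPS library, 634 in UT, 563 in IL-4 and 571 in IL-1a, and UT over MAPS was 5.69 (5.49 to 5.89). In T cells it was at 337, 1374, 1135 and 1227 CPM, and in endothelial cells the ratio was 4.73 (3.76 to 6.02). The MAPS value lay far below the EV values each time, and the EV values lay close together. Rps2, which lines the channel where messenger RNA enters, was at 600 CPM in MAPS microglia, 2085 in UT, 1982 in IL-4 and 1999 in IL-1a, a UT over MAPS ratio of 3.47 (3.42 to 3.53). Rps20, in the head of the small subunit, had a ratio of 3.13 in microglia, and Rpl18 had 3.33 in oligodendrocytes and 2.95 in endothelial cells. Rps19bp1 was also among the highest in T cells, at 3.08 (2.33 to 4.07). Rarer members reached higher values with wide intervals, picked out after their values were seen: Rps4l in T cells, with 68 UMIs in UT and 21 in MAPS, was at 11.5 (6.95 to 19.7), and Rpl37rt in endothelial cells had 118 and 2 UMIs.

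The members that were lower in UT than in MAPS recurred between classes: Rps12, Rps15, Rps25, Rps6, Rpl4, Rpl13a and Rpl23a were called lower in all 4. With TMM scaling, Rps12 was still called lower in all 4, Rps15, Rps25 and Rpl23a in all but oligodendrocytes, and Rpl4 in microglia and T cells. Rps15 was at 1236 CPM in MAPS microglia, 329 in UT, 346 in IL-4 and 309 in IL-1a, a UT over MAPS ratio of 0.266 (0.258 to 0.274). In T cells it was at 2511, 587, 622 and 567 CPM. Rps25, known for its part in initiation at internal entry sites, had ratios of 0.297 in microglia and 0.234 in T cells. Rps12 was at 2442 CPM in MAPS microglia, 879 in UT, 958 in IL-4 and 687 in IL-1a. Its ratio was 0.360 in microglia, 0.354 in oligodendrocytes, 0.283 in T cells and 0.374 in endothelial cells. Rpl23a was at 389, 116, 120 and 87.3 CPM in microglia. Rps6, the substrate of S6 kinase, was at 379 CPM in MAPS microglia, 204 in UT, 195 in IL-4 and 173 in IL-1a. In each of these genes the MAPS value was above all EV values in microglia, against the direction of most other members.

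The ratio also moved with transcript length over all genes, a comparison added after the data were seen. In microglia, the median log2 ratio of UT over MAPS for genes other than the members was -0.09 under 1000 bases, -0.65 from 1000 to 2000, -1.25 from 2000 to 4000 and -1.41 above 4000. Members under 1000 bases had a median of 0.71. In T cells the shortest and longest other genes had medians of -0.08 and -1.22 and short members 0.28. In oligodendrocytes they were 0.23, -1.18 and 0.79, and in endothelial cells 0.28, -1.13 and 0.69. The median transcript was 704 bases for members and 2151 for other genes tested in microglia. Short members thus lay above short other genes in all 4 classes. For IL-1a over UT in microglia the other genes ran from -0.03 under 1000 bases to -0.25 above 4000, and for IL-4 over UT from -0.08 to -0.03. The part of transcript length in the members' ratios was not tested.

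The IL-1a and IL-4 libraries gave counts close to those of UT against MAPS, and all of these comparisons share the MAPS library. In microglia 59 were higher and 10 lower in IL-1a (15.6% and 74.2% of all genes), and 61 and 9 in IL-4 (13.8% and 74%). In T cells the counts were 41 and 19 in IL-1a (19.4% and 68.5%) and 44 and 19 in IL-4 (17.8% and 67.7%). In oligodendrocytes they were 66 and 10 in IL-1a (22.6% and 64.1%) and 68 and 8 in IL-4 (21.1% and 62.9%). In endothelial cells they were 61 and 10 in IL-1a (25.2% and 60.5%) and 60 and 9 in IL-4 (22.3% and 60.8%).

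**Figure D4:**
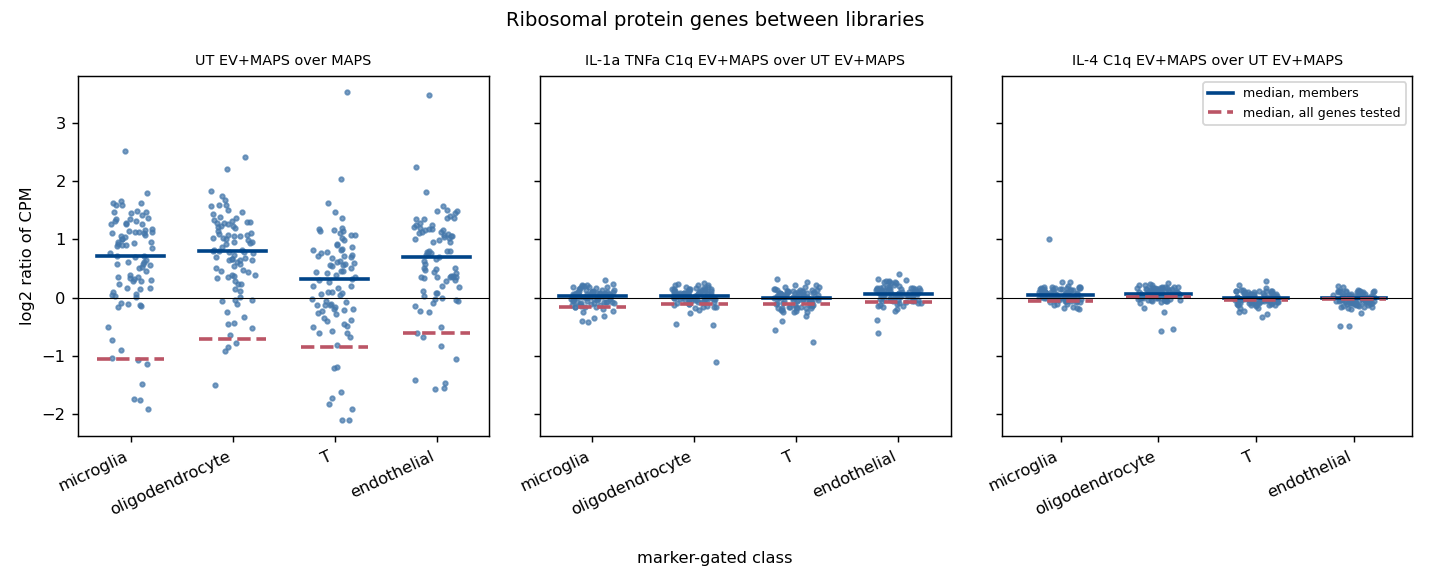
Log2 ratio of CPM (vertical axis) for each tested member, 1 point each, in the 4 classes with the most gated cells, for UT over MAPS, IL-1a over UT and IL-4 over UT; solid bars are the members' medians and dashed bars those of all tested genes. For UT over MAPS the members spread widely around medians of 0.31 to 0.81, and in the other panels nearly all lie within 0.32 of 0.

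The comparisons among EV libraries ask how vesicles from astrocytes given the named factors differed from UT vesicles, without the MAPS library. In the 4 classes with the most gated cells, few members were called. For IL-1a over UT in microglia 0 of 87 were higher and 3 lower, against 4.36% and 25.4% of all genes. In oligodendrocytes the counts were 0 and 3 of 87 (7.37% and 22.7%), in T cells 1 and 3 of 86 (10.4% and 28.9%), and in endothelial cells 1 and 2 of 86 (8.31% and 22.6%). The median log2 ratio of members lay between 0.00 and 0.07, beside -0.16 to -0.08 over all genes. In each of these 4 classes both counts lay below the background shares, and the members' median lay above that of all genes. The background was not matched to the members in UMIs per gene, here or in the comparisons that follow. Ratios from few UMIs vary more by counting error. Whether the low counts of called members reflect more than their UMIs per gene was therefore not tested. In astrocytes, added here after the values were seen, 13 of 83 were higher and 2 lower (12.8% and 22.3% of all genes). The higher count thus lay near the background share. The median log2 ratio in astrocytes was 0.19 for members and -0.05 for all genes. There Rpsa was at 194 CPM in MAPS, 532 in UT, 603 in IL-4 and 799 in IL-1a, with IL-1a over UT at 1.503 (1.35 to 1.67), and Rplp0 was at 1.40 (1.248 to 1.57). In these 2 genes the IL-1a value was the highest of the 4 and the MAPS value the lowest.

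The microglial genes called lower in IL-1a than in UT were Rps12 at 0.782 (0.763 to 0.802), Rpl23a at 0.753 (0.702 to 0.806) and Rps27rt at 0.759 (0.657 to 0.875). Rps12 was also lower in endothelial cells, at 0.770. Rpl10, a late-joining protein next to the transfer RNA sites, was at 0.757 (0.715 to 0.802) in T cells, with 1218 CPM in UT and 923 in IL-1a. In microglia Rpl10 was at 1185 CPM in MAPS, 1273 in UT, 1347 in IL-4 and 1022 in IL-1a, so that IL-1a was the lowest of the 4. Rps4l in T cells was called at 0.677 (0.486 to 0.947) from 84 and 68 UMIs. The others called were Rps27rt in oligodendrocytes, T cells and endothelial cells, and Rpl37rt and Rpl32l in oligodendrocytes, each of the last with under 100 UMIs in each library. Rpl32l and Rpl37rt fell outside the naming rule here and were picked out after their values were seen.

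In the 4 classes with the most gated cells, the members called higher in IL-1a than in UT were Rps27l in T cells, at 1.252 (1.13 to 1.38), and Rpl6l in endothelial cells, at 1.32 (0.801 to 2.17) from 37 and 33 UMIs. Several core genes lay just under the call. Rpl35, near the exit tunnel, was at 1078 CPM in MAPS microglia, 1418 in UT, 1582 in IL-4 and 1676 in IL-1a, with IL-1a over UT at 1.18 (1.16 to 1.20). It was at 1.19 in oligodendrocytes and 1.24 in endothelial cells. Rps20 was at 1.17 in microglia and Rpl6 at 1.20 in T cells. With TMM scaling, 9 members were called higher and 0 lower in microglia, beside 11.1% and 11.3% of all genes.

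For IL-4 over UT, 1 of 87 members was called higher and 0 lower in microglia (6.93% and 14.9% of all genes), and 0 and 2 in oligodendrocytes (10.5% and 9.88%). In T cells 0 were higher and 1 lower (11.9% and 19%), and in endothelial cells 0 and 2 (11.9% and 14%). The one higher was Rpl39l, from 56 and 30 UMIs, at 2.005 (1.26 to 3.24). It lies outside the naming rule for this comparison and was picked out after its value was seen. The only one of the lower calls with over 200 UMIs was Rps4l in oligodendrocytes, at 0.687 (0.589 to 0.80), with 93.9 CPM in UT and 64.5 in IL-4. The others were Rps27rt in 3 classes and Rpl6l in endothelial cells. Below the call, Rps21 was at 1.21 (1.19 to 1.23) in microglia, with 2640 CPM in UT, 2667 in IL-1a and 3194 in IL-4, and Rpl27a was at 1.21 (1.19 to 1.23). Rpl24 was lower in all 4 classes, at 0.887 in microglia, 0.939 in oligodendrocytes, 0.826 in T cells and 0.881 in endothelial cells.

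Between the IL-4 and IL-1a libraries, which are also the later terms of the comparisons above, 6 members were higher and 1 lower in microglia (21.4% and 9.81% of all genes). The counts were 3 and 1 in oligodendrocytes (25.5% and 8.88%), 5 and 2 in T cells (22.9% and 13%) and 1 and 7 in endothelial cells (23.1% and 13.8%). The highest in microglia with over 200 UMIs were Rps12 at 1.39 (1.36 to 1.43), Rpl23a at 1.38 (1.28 to 1.48), Rpl10 at 1.32 (1.29 to 1.35) and Rplp1 at 1.29 (1.28 to 1.31). These 4 were picked out after the values were seen. With TMM scaling the counts were 3 and 2 in microglia (14.1% and 14.7% of all genes) and 1 and 4 in oligodendrocytes (14.3% and 17.9%). They were 1 and 7 in T cells (15.4% and 21.2%) and 1 and 7 in endothelial cells (21.8% and 14.9%). The split thus turned in oligodendrocytes and T cells. In endothelial cells Rps4x was at 0.785 and Rpsa at 0.790.

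The classes also differed in which ribosomal protein genes made up their share. Shares of ribosomal protein UMIs were averaged over the 4 libraries with equal weight, and for each gene named the highest class lay above the lowest in 4 of 4 libraries. Rps4l, a close relative of the X-linked Rps4x, was highest in ependymal cells in the mean over libraries, at 0.237%. It was at 0.108% there in the MAPS library, 0.340% in UT, 0.225% in IL-4 and 0.277% in IL-1a. It was near the floor in choroid plexus cells, which had 1, 3, 11 and 11 Rps4l UMIs in the MAPS, UT, IL-1a and IL-4 libraries. Endothelial cells had Rps4l at 90.4 CPM in MAPS, 253 in UT, 220 in IL-4 and 305 in IL-1a, and T cells at 3.57, 41.0, 36.1 and 27.8. In the MAPS library endothelial cells (0.125%) and astrocytes (0.115%) lay above ependymal cells. In the mean over libraries, ependymal and choroid plexus cells, neighbouring epithelia, thus lay at opposite ends of its range.

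Rps27l, a p53 target related to Rps27, was highest in choroid plexus cells, at 0.930% in the MAPS library, 0.958% in UT, 0.999% in IL-4 and 1.05% in IL-1a. It was lowest in T cells, at 0.084% to 0.152%, and the ratio of the means was 7.71. Rps19bp1 and Rpl7l1 were highest in astrocytes and lowest in T cells, with ratios of 9.52 and 7.58. Both are nucleolar or accessory proteins and not standard subunits.

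Further core genes are given because they are subunits with a named role, a choice made after the values were seen. Rpsa was highest in T cells, at 2.22%, and lowest in choroid plexus cells, at 0.833%. Rps26, which touches messenger RNA at the exit site, was highest in neuroblasts, at 1.52%, and lowest in endothelial cells, at 0.590%. Rpl38, known for its part in translation of Hox messages, was highest in endothelial cells, at 2.24%, and lowest in microglia, at 0.929%. Rps23, a decoding-centre protein, varied least of the 86 genes, with a highest class 1.16 times its lowest. Within a library, the log2 make-up of pairs of classes correlated with r of 0.878 to 0.978 in MAPS and 0.906 to 0.985 in the EV libraries.

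**Figure D5:**
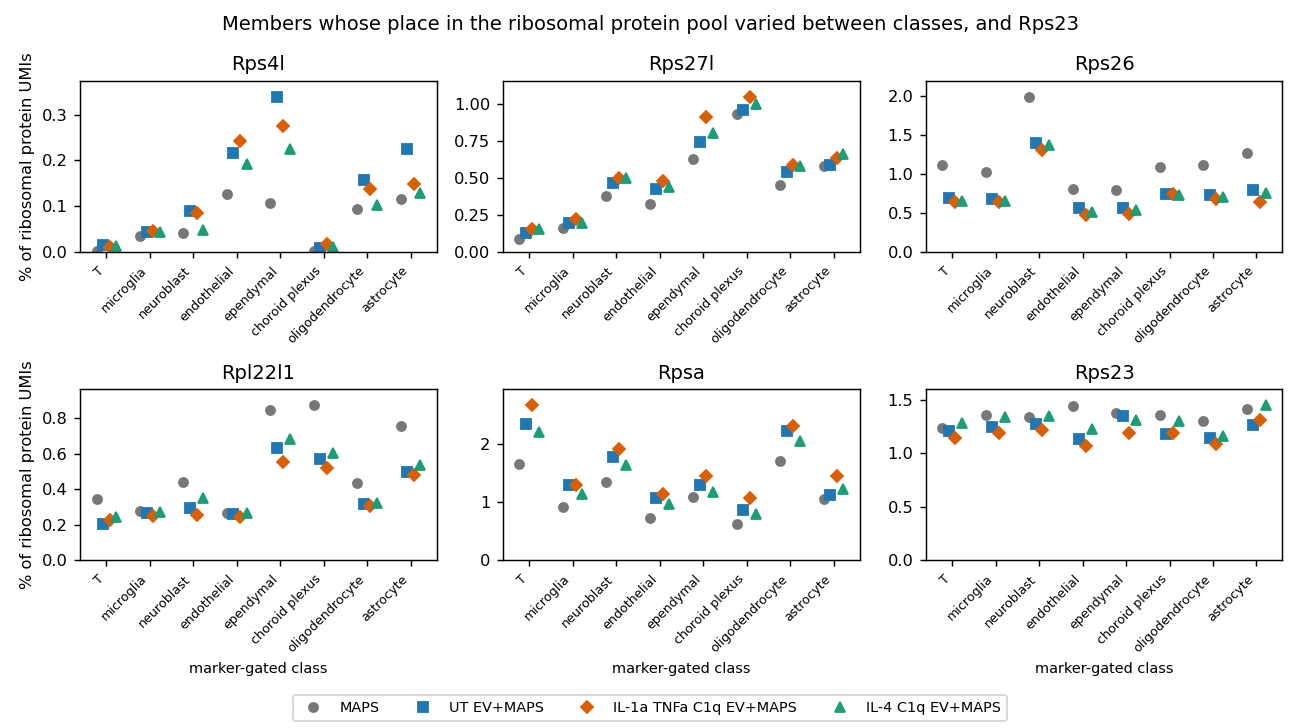
Share of ribosomal protein UMIs (percent, vertical axes from 0 with a scale of their own) taken by Rps4l, Rps27l, Rps26, Rpl22l1, Rpsa and Rps23 in 8 classes, 1 point per library. Rps27l lies at 0.930% to 1.05% in choroid plexus cells and at 0.084% to 0.152% in T cells, and Rps23 varies little between classes.

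Paralogs of standard subunits let the data show whether a pair moves together. Rps27 and its relative Rps27l encode the same zinc-binding small-subunit protein in slightly different forms. Their first 90 coding bases are shown because Rps27l was among the genes that differed most between classes. Capitals mark the 24 bases that differ, of 61 in 255 coding bases (76.1% identity, GENCODE M21 on GRCm38).
Rps27 (chr3:90212725-90213615, minus strand): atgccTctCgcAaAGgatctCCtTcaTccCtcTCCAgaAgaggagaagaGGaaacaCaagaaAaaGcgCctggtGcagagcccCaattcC
Rps27l (chr9:66946175-66949357, plus strand): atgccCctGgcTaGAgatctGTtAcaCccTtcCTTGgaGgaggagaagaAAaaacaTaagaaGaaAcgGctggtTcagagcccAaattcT
Over all kept cells Rps27 was at 1655 CPM in MAPS, 1230 in UT, 1363 in IL-4 and 1319 in IL-1a, while Rps27l was at 176, 405, 464 and 498. The 2 genes thus had opposite orders between MAPS and EV libraries. In T cells Rps27 was at 4676, 3356, 3403 and 2976 CPM and Rps27l at 183, 341, 415 and 426. In choroid plexus cells Rps27 was at 1038, 611, 607 and 588 CPM and Rps27l at 525, 720, 705 and 770, so Rps27l was the higher of the pair in the EV libraries and the lower in MAPS. Rps27rt has a coding sequence identical to that of Rps27, and its 4668 UMIs and its ratios are uncertain for that reason.

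Rpl36a on the X chromosome and Rpl36al on chromosome 12 differ at 39 of 321 coding bases (87.9% identity), and capitals mark the 14 that differ in the first 90.
Rpl36a (chrX:134585717-134587957, plus strand): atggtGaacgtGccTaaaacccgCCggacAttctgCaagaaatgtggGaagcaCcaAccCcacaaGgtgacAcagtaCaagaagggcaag
Rpl36al (chr12:69182816-69183136, minus strand): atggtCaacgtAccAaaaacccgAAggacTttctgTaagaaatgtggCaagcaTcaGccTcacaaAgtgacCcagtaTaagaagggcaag
Rpl36a was at 681 CPM in MAPS microglia, 825 in UT, 847 in IL-4 and 806 in IL-1a. Rpl36al was at 199, 494, 499 and 526 CPM, so the pair was nearer to parity in the EV libraries. In endothelial cells Rpl36a was at 519, 661, 668 and 683 CPM and Rpl36al at 153, 307, 322 and 333.

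The levels and UMIs of the pairs that follow are over all kept cells. Rpl22 and Rpl22l1 (66.9% identity), which can stand in for each other in the ribosome, were at 814 and 306 CPM in MAPS, 1368 and 357 in UT, 1443 and 387 in IL-4 and 1572 and 369 in IL-1a. Rps4x was at 1348, 2207, 2137 and 2567 CPM and Rps4l at 28.1, 86.3, 76.4 and 85.99 in the same order of libraries. Rpl39, which narrows the exit tunnel, was at 1806, 1522, 1640 and 1583 CPM, and its testis-enriched form Rpl39l (85.3% identity) at 2.60, 1.95, 2.22 and 1.37. The other relatives were rare beside their partners: Rpl7l1 had 12115 UMIs and Rpl7 127122, Rpl37rt 5990 and Rpl37 588919, Rpl6l 1827 and Rpl6 243466, and Rpl32l 313 and Rpl32 452355. Rps3a3 and Rps3a2 had 180 and 124 beside 488277 for Rps3a1, and Rpl3l had 54 beside 208655 for Rpl3.

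Other genes of translation showed whether the pattern was shared. Ribosomal proteins outside the symbol rule differed from one another: in microglia Fau, a ubiquitin-like fusion to a small-subunit protein, was 3.17-fold higher in UT than in MAPS, and Rack1, a scaffold on the small subunit, at 0.53-fold. The mitochondrial ribosomal proteins, which translate the mitochondrial genome and are not 5′ TOP genes as a group, were largely higher: 58 of 79 tested in microglia were higher and 10 lower, with a median log2 ratio of 0.90. In T cells 52 of 75 were higher and 11 lower, where 18.8% and 65.4% of all genes were. They gave 0.256% of microglial UMIs in MAPS, 0.505% in UT, 0.469% in IL-4 and 0.546% in IL-1a.

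Elongation factors and other 5′ TOP messages were mixed. Of 15 such genes in microglia, 5 were higher and 8 lower in UT than in MAPS (15.8% and 71.4% of all genes), with a median log2 ratio of -0.33 that turned to 0.49 with TMM scaling. Eef2, the translocation factor, was at 752 CPM in MAPS, 199 in UT, 190 in IL-4 and 157 in IL-1a. Pabpc1, the poly(A) binding protein, was at 597 CPM in MAPS and 186 in UT. On the other side, Naca, which binds new proteins at the exit tunnel, had a UT over MAPS ratio of 3.13 (3.07 to 3.19), and Eef1d, an exchange factor of elongation, was at 193 CPM in MAPS and 535 in UT. In T cells 4 of the 15 were higher and 10 lower, with a median of -0.79, beside 18.8% and 65.4% of all genes there. Genes of this list thus lay far apart in both directions.

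Of 17 initiation factors in microglia, 5 were higher and 6 lower, with a median of -0.13 that turned positive with TMM scaling (log2 factor -0.82). Eif1, which guides start codon choice, was at 1012 CPM in MAPS and 2367 in UT, and Eif4a2, a helicase, at 269 and 81.6. Of 25 ribosome biogenesis genes, which process rRNA in the nucleolus, 4 were higher and 14 lower, with a median of -0.65 that turned to 0.17 with TMM scaling. Of 18 genes of mTORC1 and translation control, 3 were higher and 15 lower, with a median of -1.43. Myc, which drives transcription of ribosome genes, was at 59.2 CPM in MAPS and 10.8 in UT, and Tsc1, an inhibitor of mTORC1, at 39.4 and 7.47. Of the 8 immediate early genes, which mark cell handling and stimulation, 2 were higher and 5 lower, with a median of -0.68 that turned to 0.14 with TMM scaling. They gave 2.07% of microglial UMIs in MAPS, 1.498% in UT, 1.31% in IL-4 and 1.07% in IL-1a. Each of these lists stood beside 15.8% of all genes higher and 71.4% lower.

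Among EV libraries the list medians in microglia lay closer to 0 than for UT over MAPS, except initiation for IL-1a over UT. That median was -0.18 (0 of 17 genes higher and 0 lower), against -0.13 for UT over MAPS. For IL-1a over UT in microglia, 0 of 25 biogenesis genes were higher and 9 lower (median -0.25), 0 of 18 mTORC1 genes were higher and 8 lower (-0.22), and 2 of 78 mitochondrial ribosomal proteins were higher and 4 lower (0.10). Of the 8 immediate early genes, 0 were higher and 7 lower (-0.50). Beside these stood 4.36% of all genes higher and 25.4% lower. For IL-4 over UT the counts were 0 and 6 for biogenesis (-0.23), 1 and 2 for mTORC1 (-0.06), 0 and 9 for mitochondrial ribosomal proteins (-0.12) and 0 and 1 for immediate early genes (-0.16), beside 6.93% and 14.9% of all genes. The members themselves had medians of 0.02 for IL-1a over UT and 0.04 for IL-4 over UT in the same cells.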

How the data were processed

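Per the file headers and the submitters' processing notes, the authors made 10x count matrices with Cell Ranger against GRCm39; the header gives version 8.0.1 and the notes 7.0.0, with bcl2fastq 5.0.1 and Seurat 4.1.0. The annotation is not given in the sources used here. The deposited values are whole-number UMI counts per gene and cell, not normalized, with 13076 to 15138 barcodes per library. Barcodes entered with 500 or more UMIs, 300 or more genes and a mitochondrial share up to 20%, less the 3.63% to 5.23% that scrublet called doublets. A cell entered a class with at least 3 of 8 own markers detected and at least 2 more than any other class. Counts were summed per library and class. Shares have Clopper-Pearson, levels Poisson and ratios conditional binomial 95% intervals, covering counting error only. No test was made, since each group has 1 library. Genes were called past 0.32 on the log2 scale with at least 50 UMIs over both libraries. Genes were named by size: most and fewest UMIs, the 5 largest class ratios, the 3 highest and 3 lowest library ratios in each of the 4 largest classes with at least 200 UMIs, paralogs with at least 50 UMIs, and up to 4 genes per list. Members and lists were chosen with earlier results of these data known. Alternatives covered gates, depth, mitochondrial filters, pseudogenes, TMM scaling and thresholds. The calculations were checked on simulated data and used scanpy 1.11.5, pandas 2.3.3, scipy 1.17.1 and numpy 2.4.6 under Python 3.11.15. Values of a few genes are not reported here.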

Additional observations from a re-analysis of the deposited data

Results flagged for a closer look

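Symbols marked as pseudogenes of ribosomal proteins were outside the main measurement and carried a signal in every library. Per 100 UMIs of the 94 genes they held 0.339 in the UT library, 0.326 in the IL-1a library and 0.339 in the IL-4 library, each above the 0.316 of the MAPS library, which has no vesicles. These totals mix cell classes. Within 4 classes the MAPS library was the highest, at 0.550 against 0.303 to 0.362 in astrocytes, 0.461 against 0.312 to 0.330 in ependymal cells, 0.365 against 0.318 to 0.339 in neuroblasts and 0.355 against 0.346 to 0.354 in oligodendrocytes, so the order of the totals did not hold within each class. No replicate bears on the differences.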

How the results depend on the processing

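The MAPS library stayed lowest in 8 of 8 classes, T cells highest and astrocytes lowest in 4 of 4 libraries, under every gate, depth, mitochondrial, doublet, pseudogene and weighting alternative run. The median share ratio over 8 classes moved beyond its narrow counting interval as follows. A stricter gate gave 1.68 for IL-4 over MAPS, 1.03 for IL-1a over UT and 0.991 for IL-4 over UT. A looser gate gave 1.73 for IL-1a over MAPS, 1.03 for IL-1a over UT and 0.959 for IL-4 over IL-1a. A floor of 1500 UMIs gave 1.62, 1.73 and 1.62 for UT, IL-1a and IL-4 over MAPS. At most 5% mitochondrial UMIs gave 1.62 and 1.63 for UT and IL-4 over MAPS, and leaving those UMIs out gave 1.63, 1.73 and 1.63 for UT, IL-1a and IL-4. The mean of per-cell shares gave 1.77, 1.89 and 1.78 over MAPS, 1.04 for IL-1a over UT and 0.977 for IL-4 over IL-1a. Without the 5 members with the most UMIs the ratios were 1.59, 1.66 and 1.60 over MAPS and 1.03 for IL-1a over UT. Keeping called doublets, an alternative added after the data were seen, gave 1.77 for IL-1a over MAPS, 1.06 and 1.03 for IL-1a and IL-4 over UT and 0.980 for IL-4 over IL-1a. The IL-4 over UT median thus lay on either side of 1.

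Counts of called members moved more. Classes follow the order microglia, oligodendrocytes, T cells, endothelial cells. With TMM factors, members lower than in MAPS numbered 5, 1, 8 and 4 for UT, 5, 3, 8 and 4 for IL-1a and 4, 1, 8 and 4 for IL-4, and members higher in T cells 69 for IL-1a and 67 for IL-4. Of all genes, 46.7%, 37.7%, 51.3% and 26.1% were lower for UT, and 48.8%, 42.6%, 48.5% and 26.0% for IL-1a. For IL-4 they were 47.1%, 42.7%, 50.4% and 23.5%. All genes higher in T cells were 34.0% for IL-1a and 30.5% for IL-4. For IL-1a over UT TMM gave 9, 1, 7 and 7 higher, with 0 lower in microglia and 1 in endothelial cells. All genes higher were 11.1%, 12.3%, 23.0% and 12.1%, and all genes lower 11.3% in microglia and 17.8% in endothelial cells. For IL-4 over UT it gave 3 higher in microglia, and 1 higher and 0 lower in T cells. For IL-4 over IL-1a it gave 3, 1 and 1 higher and 2, 4 and 7 lower in the first 3 classes, with the shares of all genes given further above. At 1.5-fold, UT over MAPS had 5 lower in oligodendrocytes and 12 in T cells, and IL-4 over MAPS 28 higher and 11 lower in T cells. At that fold IL-1a over UT had 0 higher in T cells and endothelial cells and 0, 1, 1 and 1 lower, and IL-4 over UT had 0 lower in all but microglia, where the main count was already 0. IL-4 over IL-1a then had 1, 1, 0 and 0 higher and 0, 0, 0 and 1 lower. With at least 500 UMIs per gene, IL-1a over UT had 0 lower in oligodendrocytes, 1 in T cells and 1 in endothelial cells, with 0 higher there. IL-4 over UT then had 0 higher in microglia and 1, 0 and 0 lower in the others, and IL-4 over IL-1a 0 lower in microglia, and 3 higher and 1 lower in T cells. The stricter gate gave 1 lower in oligodendrocytes for IL-4 over UT. For IL-4 over IL-1a it gave 5 higher in oligodendrocytes, 3 higher in T cells and 3 lower in endothelial cells. The floor of 1500 UMIs gave 0 lower in T cells for IL-4 over UT and 2 higher in endothelial cells for IL-4 over IL-1a. A higher fold or UMI minimum calls or tests fewer genes by construction. For the rest, the cause was not tested. Shares of all genes were not computed at these fold, UMI and gate settings, so the counts there show only how far a count moved.

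Of the list medians at or beyond the log2 threshold for calling genes, those that changed sign did so under TMM factors only. Changes of sign in smaller medians are not listed here. The initiation median for UT over MAPS in microglia was such a case, and turned positive with TMM scaling. The 5′ TOP list turned to 0.49 for UT and 0.51 for IL-1a over MAPS in microglia, and the initiation list to 0.23 for IL-4 over MAPS in T cells. The biogenesis list turned to 0.17, 0.072 and 0.051 in microglia and 0.28, 0.079 and 0.064 in oligodendrocytes for UT, IL-1a and IL-4 over MAPS, and to 0.48 in endothelial cells for IL-1a. The mTORC1 list turned to 0.11 and 0.075 in endothelial cells for IL-1a and IL-4. The immediate early list turned to 0.14 in microglia and 0.15 in T cells for UT. No paired analysis was possible because each group has 1 library. Depth limits the rare relatives most: with under 100 UMIs in a class, their ratios have wide intervals.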
